A study of Homo sapiens with 6 samples.

Results

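The genes of DNA replication described here encode the proteins that license replication origins, unwind DNA and copy it at the fork. The members were chosen by name, with earlier results of these data known. The list held 55 symbols, 7 of them older aliases, which left 48 genes, all with at least 1 probe named on the array. Of these 48, 46 were detected well enough to be tested, out of 9797 genes tested and 18665 genes with a named probe. The other 2 passed the detection threshold (detection p below 0.01) on none of the 6 arrays. GINS1, a subunit of the GINS complex, had a detection p of 0.18 to 0.96. DBF4, the activator of the kinase CDC7, came closer, with 0.012 to 0.080.

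Expression was measured on Illumina BeadChip arrays in HEK293T cells, an established line from human embryonic kidney in which the large T antigen of SV40 is expressed. The 3 control arrays held HEK293T cells labelled only as control, and whether these received an empty plasmid is not stated. The 3 transfected arrays held the same line after 4 µg of cloned hsa-miR-128 per well of a plate, and the series' design text calls both groups biological triplicates. No genotype, drug or time point is given, and the transgene's promoter and the cloned hairpin are not named in the labels. Arrays are numbered here in deposit order, which pairs none of them. All 6 arrays lay on 1 slide, with the controls and the transfected cells on adjoining sections, so section and group cannot be told apart.

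Origins are licensed in G1, when the origin recognition complex (ORC) with CDC6 and CDT1 loads the MCM2 to MCM7 ring onto DNA. In S phase the kinase CDC7 and the factors MCM10, CDC45 and GINS turn that ring into a moving helicase, and DNA polymerases alpha, delta and epsilon copy the strands behind it. Many of these genes are transcribed periodically under E2F factors. The SV40 large T antigen binds RB, which otherwise restrains E2F, so in this line E2F targets are known to be freed from part of that control. In such bulk samples, fewer cells in S phase and less RNA per cell cannot be told apart.

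The agent transfected was a microRNA, a class of short RNA that lowers messenger RNAs carrying matches to its seed. The mature miR-128-3p of RefSeq (GRCh38.p14) has 21 bases and is encoded at chr2:135665446-135665466 and chr3:35744527-35744547, both on the plus strand. It is shown to identify the agent, with the seed, bases 2 to 8, in capitals. No messenger RNA sequence was searched for this seed.
miR-128-3p: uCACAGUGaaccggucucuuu

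The arrays had mean signals of 408 to 660 with 12995 to 14345 detected probes, with transfected array 1 the dimmest and control 1 the brightest. The number of arrays limits the precision. Arrays of the same group correlated at 0.950 to 0.993 and arrays of different groups at 0.930 to 0.979, so these ranges overlapped, and transfected array 3 correlated better with the controls' mean (0.977) than transfected arrays 1 and 2 did (0.949 and 0.954). Of 8 markers listed for HEK293T, NEFL, VIM, KRT8 and KRT18 were detected on all 6 arrays and INA on 5, while NEFM, PAX2 and LHX1 were detected on none. Of 8 markers of other cell types 7 had a probe and none was detected on all arrays; CD14 was detected on 1 array and the other 6 on none.

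With limma and p-values adjusted over all genes by Benjamini-Hochberg (threshold 0.05), none of the 46 replication genes was called. None of the 9797 genes did either (0%), so the absence of calls is not particular to the replication genes. The lowest adjusted p among them was 0.0942, for MCM10. Before adjustment, 6 of the 46 (13.0%) had a p under 0.05, a level that 28.6% of all genes reached. Among the 6, GMNN, MCM10, POLD3 and RFC3 were higher in transfected cells, where 12.5% of all genes were higher at that level. POLD1 and LIG1 were lower, where 16.1% of all genes were.

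The differences were small in size. Every difference below is transfected minus control on normalized log2 intensity, with its moderated standard error. The median size of the difference, without its sign, was 0.21 for the 46 genes and 0.34 for all genes. The differences ran from -0.53 for LIG1 to 0.68 for PRIM2, which was detected on 3 of the 6 arrays; the highest among genes detected on all arrays was 0.67, for RFC3. The 95% interval of the difference lay wholly within a 2-fold change in either direction for 37 of the 46 genes (80.4%), against 64.5% of all genes. By sign, 28 lay above 0 and 18 below; the median was 0.10 beside -0.03 for all genes. With arrays scaled to equal medians in place of quantile normalization, only 9 of the 46 were above 0 and 37 were below; their median was then -0.18 and that of all genes -0.32. Relative to the median gene, 31 of the 46 were above it in the first case and 27 in the second.

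**Figure D1:**
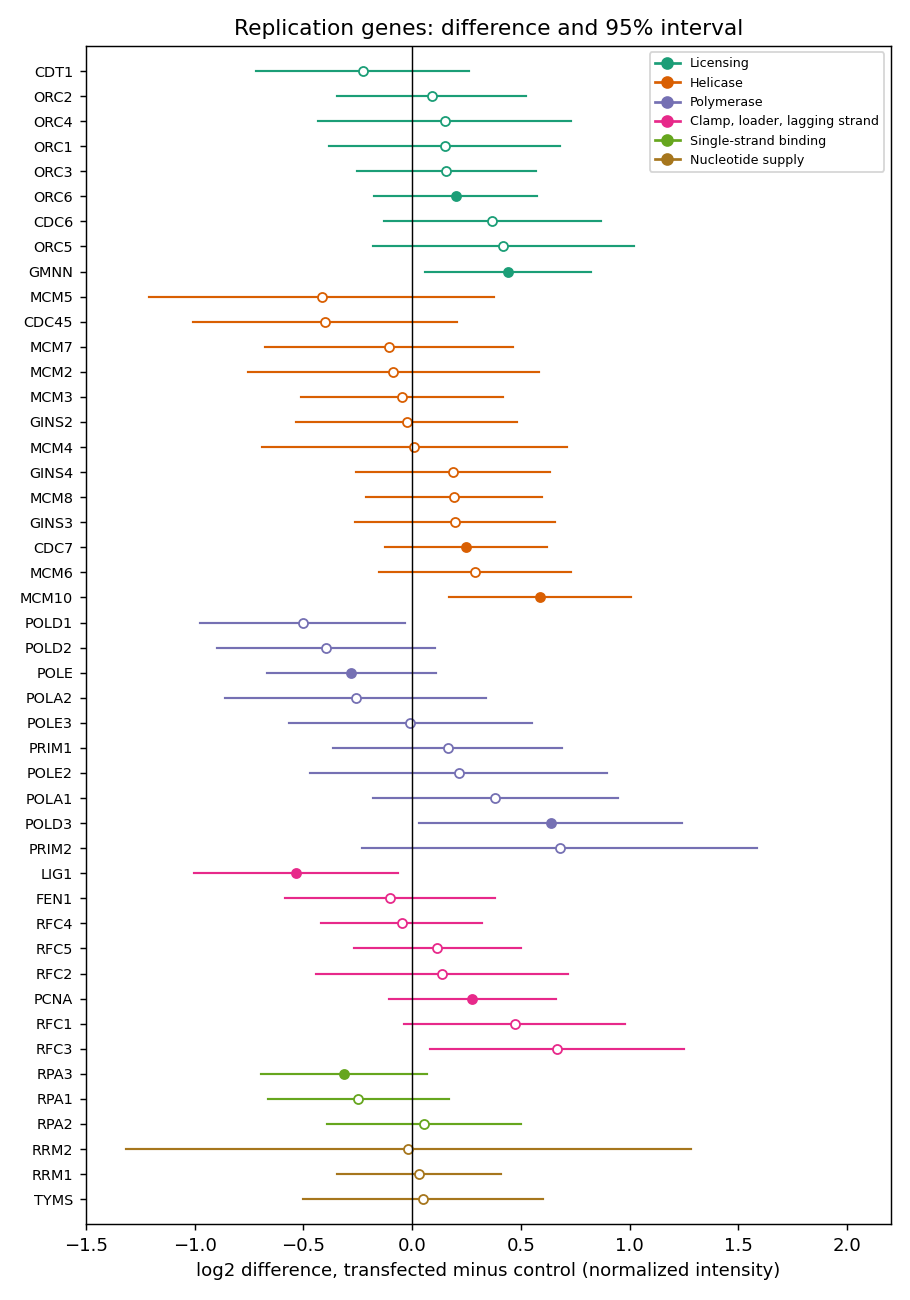
Log2 difference between transfected and control cells for the 46 tested replication genes (x axis, normalized log2 intensity), by role group and ordered by size within it. Points are limma estimates, lines are 95% intervals, and filled points mark the 9 genes whose 3 transfected arrays lay wholly on 1 side of the 3 controls. Of the 46 intervals, 37 lie between -1 and 1. Under scaling to equal medians, 37 of the 46 are below 0.

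The transfected arrays lay wholly above the controls for 6 genes, GMNN, ORC6, MCM10, CDC7, POLD3 and PCNA (13.0%, against 14.7% of all genes). They lay wholly below for LIG1, POLE and RPA3 (6.52%, against 18.1% of all genes). For the other 37 genes the groups overlapped. By each of these measures the share of replication genes that stood apart was at or below that of the array as a whole.

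**Figure D2:**
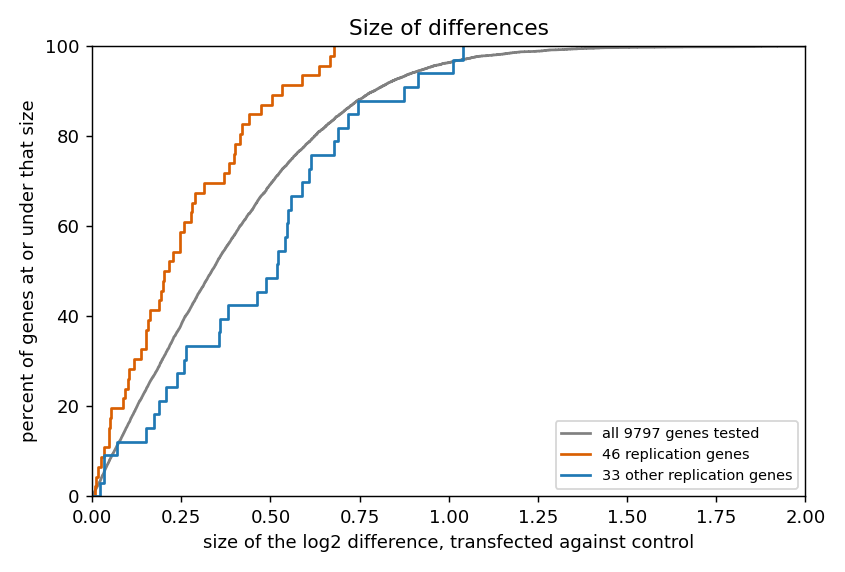
Cumulative share of genes (y axis, percent) by the size of the log2 difference between transfected and control cells, sign ignored (x axis). The line of the 46 replication genes lies to the left of that of all 9797 genes tested, with medians of 0.21 and 0.34. That of 33 further replication genes lies to the right, with a median of 0.52. With arrays scaled to equal medians, the median was 0.29 for these 33 genes and 0.39 for all genes. Both lists were chosen with earlier results of these data known.

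Members of the licensing group had the smallest adjusted p at GMNN, which encodes geminin, the inhibitor that keeps CDT1 from reloading MCM in S and G2 phase. Its log2 intensities were 11.91, 11.72 and 11.94 in controls 1 to 3 and 12.19, 12.40 and 12.30 on transfected arrays 1 to 3. All transfected arrays were above all controls. The difference was 1.36-fold (0.44 ± 0.17 SE, adjusted p = 0.136, limma), and 0.09 with arrays scaled to equal medians. CDT1, the loader that geminin binds, had 9.99, 9.85 and 9.55 in controls and 9.29, 9.52 and 9.90 on the transfected arrays, and the groups overlapped (-0.23 ± 0.22 SE, adjusted p = 0.501). It was the only member of this group below 0, but with arrays scaled to equal medians only 3 of the 9 members were above 0.

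CDC6, the ATPase that helps ORC load MCM, had 6.11, 6.83 and 6.70 in controls and 6.81, 6.96 and 6.98 on the transfected arrays. Control 1 was the lowest of all 6, and control 2 lay just above transfected array 1 (difference 0.37 ± 0.22 SE, adjusted p = 0.293). Without control 1 the difference was 0.15. CDC6 was dim, with signals of 181 to 267 before normalization, though it was detected on all arrays. Without background correction the difference was 0.17. All 6 ORC subunits, which bind origins as a complex, had differences above 0, from 0.09 for ORC2 to 0.42 for ORC5, with adjusted p of 0.314 to 0.772. Under scaling to equal medians 1 of the 6 stayed above 0, although all 6 were above the median gene under either scaling. Without transfected array 2, 5 of the 6 were above 0. ORC6, the smallest subunit, had the groups apart by a narrow margin, with 14.85, 14.61 and 14.64 in controls and 14.90, 14.95 and 14.85 after transfection (0.20 ± 0.16 SE, adjusted p = 0.434). The second ORC6 probe gave 0.54, but there the groups overlapped. ORC5 was the ORC subunit with the highest difference, from 10.27, 10.63 and 10.62 in controls to 10.46, 11.44 and 10.88. Its transfected array 1 fell inside the controls' range, and without transfected array 2 the difference was 0.16. ORC1, ORC3 and ORC4 had differences of 0.15, 0.16 and 0.15.

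Of the 13 tested members of the helicase group, 7 had differences above 0 and 6 below, with a median of 0.01 (-0.32 with arrays scaled to equal medians, as for all genes). MCM10, which joins the helicase at activation and contacts polymerase alpha, had the smallest adjusted p of all 46. Its log2 intensities were 10.52, 10.16 and 10.34 in controls and 10.85, 11.13 and 10.80 on the transfected arrays. Every transfected array was above every control, a 1.5-fold difference (0.59 ± 0.18 SE, adjusted p = 0.0942). Its second probe gave 0.52, but there the groups overlapped, with transfected array 3 (8.62) just below control 3 (8.65). Under the other 17 settings tried MCM10 stayed above 0, between 0.29 and 0.81, and passed with array weights, where 5003 of all genes passed.

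CDC7, the kinase that phosphorylates the MCM ring, had 10.27, 10.09 and 10.22 in controls and 10.54, 10.44 and 10.34 after transfection. The groups did not overlap, but the difference of 0.25 ± 0.16 SE had an adjusted p of 0.339 and was -0.04 with arrays scaled to equal medians. CDC45, the helicase cofactor that joins MCM and GINS, was among the lower genes, with 11.21, 11.75 and 11.63 in controls and 10.74, 11.00 and 11.65 after transfection. Transfected array 3 lay at the controls' level and arrays 1 and 2 below it (-0.40 ± 0.27 SE, adjusted p = 0.341). Without transfected array 3 the difference was -0.67, and without transfected array 1 it was -0.20. Of the GINS subunits, GINS2 stood at -0.02, GINS3 at 0.20 and GINS4 at 0.19.

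The 6 subunits of the MCM2 to MCM7 ring had differences of -0.42 to 0.29 and a median of -0.07, with adjusted p of 0.343 to 0.984 and overlapping groups throughout. MCM5 had the lowest difference (-0.42 ± 0.35 SE), from log2 intensities of 10.16, 10.85 and 10.78 in controls to 9.45, 10.27 and 10.82 after transfection. Its spread within the transfected group was wider than the difference between the groups, and without transfected array 1 the difference was -0.05. MCM6 had the highest, with 12.58, 12.68 and 12.79 in controls and 12.75, 13.27 and 12.89 after transfection (0.29 ± 0.19 SE); with arrays scaled to equal medians it was -0.07. MCM2, MCM3 and MCM7 stood at -0.09, -0.05 and -0.10. MCM8, a paralogue that acts in recombination rather than in the ring, stood at 0.19 on its brighter probe, with overlapping groups. The other MCM8 probe gave 0.53, with all transfected arrays above all controls.

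MCM4 depended on the probe read. The brighter probe had log2 intensities of 11.14, 11.46 and 11.50 in controls and 10.92, 11.10 and 12.11 after transfection, a difference of 0.01. The other probe, annotated to a different RefSeq transcript, gave -0.49 ± 0.33 SE. On both probes transfected array 3 was the highest of the 6 arrays and transfected array 1 the lowest. Without transfected array 3 the difference of the brighter probe was -0.36.

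In all 6 ring genes control 1 was the lowest control and transfected array 1 the lowest transfected array. Both held for 24 of the 46 replication genes (52.2%) and for 26.6% of all genes. By role group it held for 9 of 13 helicase genes and 6 of 10 polymerase genes, but for 3 of 9 licensing and 3 of 8 clamp genes. Relative to the mean of the controls, the median of the helicase group was -0.18 on control 1, 0.09 on control 2 and 0.05 on control 3. After transfection it was -0.40, 0.09 and 0.23 on arrays 1 to 3. So the arrays of a group differed more from each other than the groups did. Over all genes these medians stayed between -0.03 and 0.01, which quantile normalization largely fixes. Leaving out control 1 and transfected array 1 together, 34 of the 46 genes were above 0 (4 of the 6 ring genes) and none passed, while 476 of all genes did. The part of array brightness in this pattern was not tested.

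**Figure D3:**
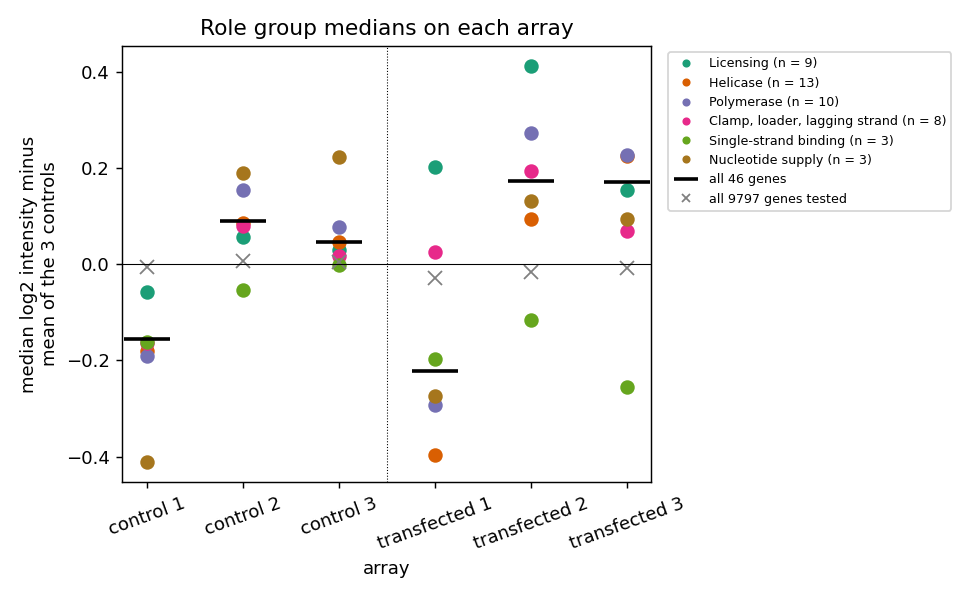
Median log2 intensity of each role group on each array, relative to the mean of the 3 controls (y axis), for controls 1 to 3 and transfected arrays 1 to 3 (x axis). Coloured points are role groups, bars the median of all 46 genes, crosses that of all 9797 genes tested. The bars lie at -0.16 on control 1 and -0.22 on transfected array 1 and between 0.05 and 0.17 on the other 4 arrays.

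**Figure D4:**
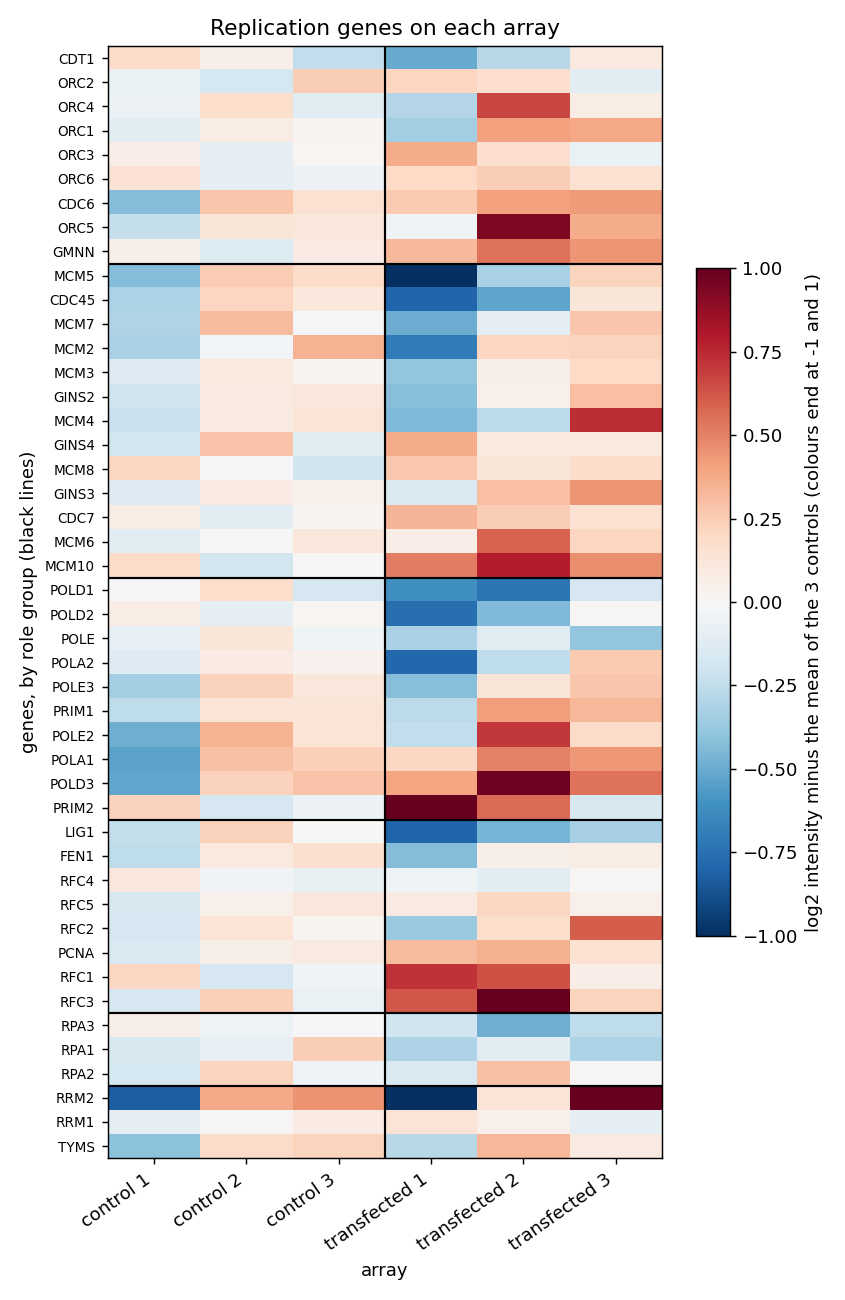
Log2 intensity of the 46 replication genes on each array (columns), relative to the mean of the 3 controls (colour), in role groups from licensing at the top to nucleotide supply at the bottom. On control 1 all 6 MCM ring genes are below the controls' mean, and on transfected array 1 all but MCM6; RRM2 shows the widest range.

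The promoters of the replication genes are shown because control 1 and transfected array 1 were the lowest of their groups in all 6 ring genes. A link between the 2 was not tested. RefSeq promoters (GRCh38.p14, 250 bases before to 50 after the start) were matched for 42 of the 48 genes. The core letters of E2F sites were searched on both strands as TTTCCCGC, TTTCGCGC, TTTGCCGC or TTTGGCGC, of which TTTGGCGC and TTTCGCGC overlap on opposite strands in TTTGGCGCGAAA. At least 1 of these was present in 19 of the 42 promoters (45.2%), against 5.74% of the 8131 promoters of tested genes and 3.33% of all 27305. By role it was 8 of 12 for helicase, 4 of 9 for polymerase, 3 of 8 for clamp and 3 of 9 for licensing genes, and all 4 of the ring genes with a promoter in the table held them. The letters CCAAT, read likewise, were in 54.8% of these promoters and in 37.8% of those of tested genes, and GGGCGG in 69.0% and 70.7%.

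The promoter of MCM6 (chr2:135876394-135876693, minus strand) held 4 matches in 2 stretches, the first at base -152. That of PCNA (chr20:5126573-5126872, minus strand) and that of LIG1 (chr19:48170295-48170594, minus strand) held 1 each. That of MCM10 (chr10:13161308-13161607, plus strand) held none of the forms searched. It does hold TTTGGCGG, which differs from TTTGGCGC in the last base and was not searched. These 4 are shown because they include the ring gene with the highest difference and genes on either side of 0, with the E2F letters in capitals. A match is a description of these letters and not a binding site.
MCM6: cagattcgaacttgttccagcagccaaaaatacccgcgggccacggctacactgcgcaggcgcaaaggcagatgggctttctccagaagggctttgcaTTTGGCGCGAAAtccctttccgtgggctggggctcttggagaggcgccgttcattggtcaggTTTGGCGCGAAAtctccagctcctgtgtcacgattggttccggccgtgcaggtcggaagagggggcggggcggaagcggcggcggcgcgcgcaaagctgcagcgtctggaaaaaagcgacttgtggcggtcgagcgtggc
PCNA: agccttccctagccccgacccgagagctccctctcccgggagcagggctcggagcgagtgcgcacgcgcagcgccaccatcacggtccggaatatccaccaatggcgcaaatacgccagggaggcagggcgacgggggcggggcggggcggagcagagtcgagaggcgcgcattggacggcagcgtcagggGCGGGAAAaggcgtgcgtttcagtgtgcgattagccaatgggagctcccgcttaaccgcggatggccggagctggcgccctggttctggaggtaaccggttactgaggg
LIG1: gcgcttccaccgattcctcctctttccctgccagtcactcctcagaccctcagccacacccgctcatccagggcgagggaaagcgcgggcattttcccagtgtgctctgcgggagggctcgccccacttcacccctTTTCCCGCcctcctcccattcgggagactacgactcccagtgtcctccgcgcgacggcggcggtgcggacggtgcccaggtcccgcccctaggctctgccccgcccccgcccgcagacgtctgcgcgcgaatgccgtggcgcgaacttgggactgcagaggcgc
MCM10: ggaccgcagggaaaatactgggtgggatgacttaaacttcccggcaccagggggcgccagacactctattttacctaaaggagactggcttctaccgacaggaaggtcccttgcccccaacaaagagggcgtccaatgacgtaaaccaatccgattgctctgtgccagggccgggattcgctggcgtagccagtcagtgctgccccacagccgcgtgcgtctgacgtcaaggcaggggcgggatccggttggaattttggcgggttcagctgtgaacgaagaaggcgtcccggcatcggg
The 18 tested genes with E2F letters had a median difference of 0.10, 10 above 0 and 8 below, and the 22 without had 0.13, 14 above and 8 below. Relative to the controls' mean, those with the letters had a median of -0.16 on control 1 and -0.26 on transfected array 1, and those without -0.08 and -0.15. This split was made after the values were seen and was not tested. It rests on the forms searched, so the 22 include MCM10 and CDC45, whose promoters hold TTTGGCGG.

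In the polymerase group, 5 of the 10 tested genes had differences above 0 and 5 below, with a median of 0.08 (-0.26 with arrays scaled to equal medians). The subunits of DNA polymerase delta, the main lagging-strand polymerase, did not go one way. POLD1, its catalytic subunit, had log2 intensities of 8.17, 8.35 and 8.0 in controls and 7.56, 7.45 and 8.01 after transfection. Transfected array 3 matched the lowest control and the other two lay below all controls (1.42-fold lower, -0.50 ± 0.21 SE, adjusted p = 0.157). POLD2, the accessory subunit bound to it, had 12.50, 12.34 and 12.45 in controls and 11.67, 11.99 and 12.44 after transfection (-0.40 ± 0.22 SE, adjusted p = 0.262), again with transfected array 3 inside the controls' range.

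POLD3, a further subunit of the same enzyme, was on the other side of 0. Log2 intensities were 7.64, 8.39 and 8.45 in controls and 8.55, 9.13 and 8.70 after transfection. All transfected arrays were above all controls, by 1.55-fold (0.64 ± 0.26 SE, adjusted p = 0.160). The margin was narrow, with controls 2 and 3 close to transfected array 1, and without control 1, the lowest control, the difference was 0.38. The second probe gave 0.61, but there the groups overlapped, with control 1 (8.02) the highest control and above transfected array 3 (7.84). Under the other 17 settings POLD3 stayed above 0, POLD1 and POLD2 below it.

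POLE, the catalytic subunit of the leading-strand polymerase epsilon, had 9.74, 9.94 and 9.77 in controls and 9.49, 9.70 and 9.42 after transfection. The groups did not overlap (-0.28 ± 0.17 SE, adjusted p = 0.305). Its partners POLE2 and POLE3 stood at 0.22 and -0.01. Of polymerase alpha, which starts each strand together with primase, the catalytic POLA1 stood at 0.38 ± 0.25 SE and the regulatory POLA2 at -0.26 ± 0.26 SE. Without control 1 POLA1 stood at 0.12, and without transfected array 1 POLA2 stood at 0.0065. Under the other 17 settings POLA1 stayed above 0 and POLA2 was below it in 16. PRIM1, the primase that makes the RNA primer, stood at 0.16.

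PRIM2, the large primase subunit, was near background. Its log2 intensities were 5.95, 5.55 and 5.65 in controls, where 1 of 3 arrays detected it, and 7.35, 6.28 and 5.55 after transfection, where 2 of 3 did. Transfected array 3 lay among the controls and transfected array 1 was far above. The difference of 0.68 ± 0.40 SE had an adjusted p of 0.287. Without transfected array 1 it was 0.22, and the second kept probe gave 0.05.

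**Figure D5:**
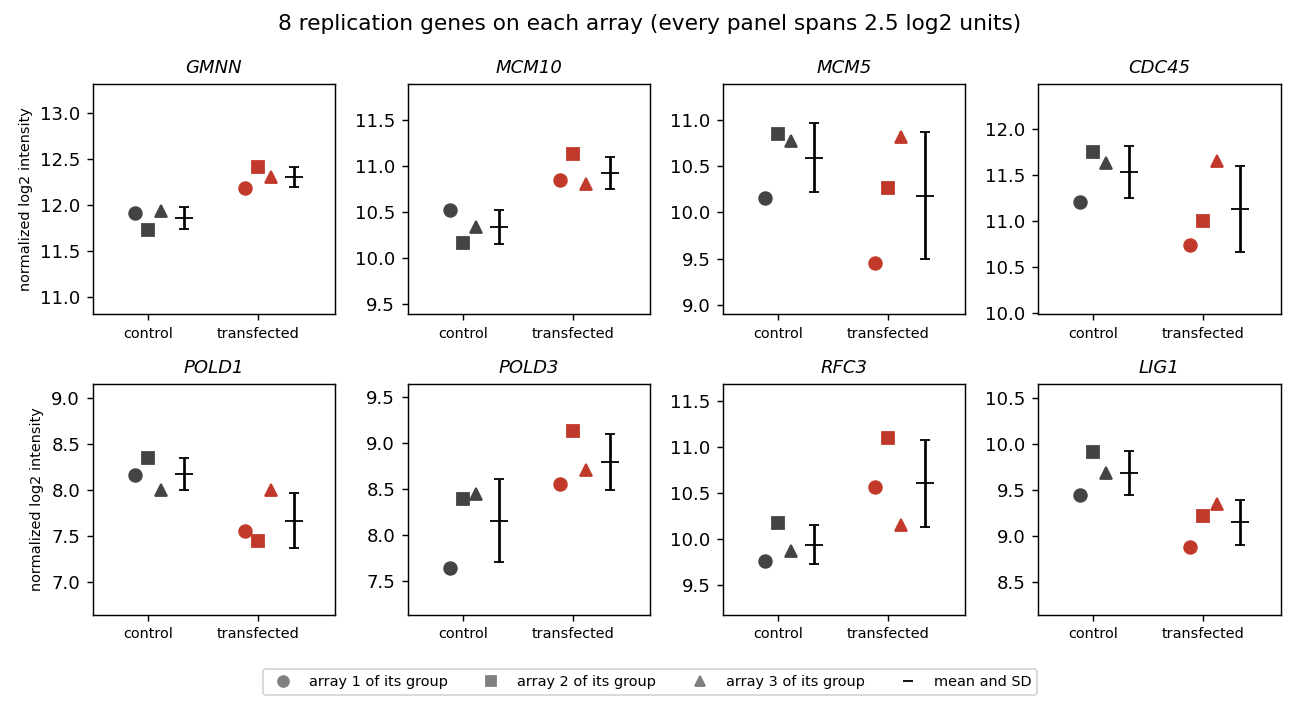
Normalized log2 intensity (y axis) of 8 replication genes on the 3 control arrays (grey) and the 3 transfected arrays (red), with the mean and SD of each group beside the points; every panel spans the same range. The groups lie apart for GMNN, MCM10, POLD3 and LIG1 and overlap for MCM5, CDC45, POLD1 and RFC3.

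The clamp, its loader and the enzymes that finish the lagging strand had 5 of 8 genes above 0 and 3 below, with a median of 0.13 (-0.15 with arrays scaled to equal medians). PCNA, the sliding clamp that tethers polymerases to DNA, had log2 intensities of 13.04, 13.25 and 13.28 in controls and 13.51, 13.55 and 13.34 after transfection. The transfected arrays were all above the controls by a small margin (1.21-fold, 0.28 ± 0.17 SE, adjusted p = 0.303), and the difference was -0.07 with arrays scaled to equal medians. Its 2 other probes were not above background on any array.

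LIG1, the ligase that joins Okazaki fragments, had the lowest difference of the 46 genes. The arrays read 9.44, 9.92 and 9.69 in controls and 8.88, 9.22 and 9.35 after transfection. All transfected arrays were below all controls, by 1.45-fold (-0.53 ± 0.21 SE, adjusted p = 0.139). It was below 0 under the other 17 settings, between -0.84 and -0.39. FEN1, the flap nuclease that trims the fragments before ligation, stood at -0.10 ± 0.21 SE, with overlapping groups.

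RFC3, a small subunit of the clamp loader, had 9.77, 10.18 and 9.87 in controls and 10.56, 11.09 and 10.16 after transfection. Transfected array 3 fell within the controls' range and the other two lay above it (1.59-fold, 0.67 ± 0.26 SE, adjusted p = 0.139). Its 3 kept probes did not share a sign: the other two gave 0.58 and -0.20, the latter on a dim probe missed on transfected array 1. RFC1, the large subunit, had 11.06, 10.69 and 10.82 in controls and 11.58, 11.49 and 10.92 after transfection (0.47 ± 0.22 SE, adjusted p = 0.200), and its second probe gave 0.74. RFC4 stood at -0.05 on the brighter probe and 0.08 on the other, with RFC2 and RFC5 at 0.14 and 0.12. Without transfected array 3, RFC1, RFC3 and POLD1 passed (adjusted p = 0.0494, 0.0457 and 0.0496), 3 of 46 where 16.3% of all genes did.

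Of the subunits of replication protein A, which coats single-stranded DNA, RPA1 and RPA3 were below 0 and RPA2 was near it. RPA3, the smallest subunit, had 12.57, 12.46 and 12.51 in controls and 12.32, 12.03 and 12.26 after transfection. All transfected arrays were below all controls (1.24-fold, -0.31 ± 0.17 SE, adjusted p = 0.25). RPA1, the large DNA-binding subunit, stood at -0.25 ± 0.18 SE on its brighter probe, and the second probe gave the same. RPA2, phosphorylated when forks stall, stood at 0.05 ± 0.20 SE and was below 0 in 5 of the other 17 settings (-0.33 with arrays scaled to equal medians).

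The enzymes of nucleotide supply had estimates close to 0. TYMS, thymidylate synthase, had 12.42, 13.02 and 13.05 in controls and 12.56, 13.16 and 12.92 after transfection (0.05 ± 0.24 SE, adjusted p = 0.906), with array 1 the lowest in either group. RRM1, the large subunit of ribonucleotide reductase, stood at 0.03 ± 0.17 SE, with a 95% interval of -0.35 to 0.41. RRM2, its S-phase subunit, had the widest spread of all members. Its log2 intensities were 5.33, 6.53 and 6.61 in controls and 4.89, 6.29 and 7.24 after transfection, and it was not detected on control 1 or transfected array 1. The difference was -0.02 ± 0.57 SE, and its 95% interval of -1.32 to 1.28 reached past a 2-fold change in either direction.

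A further list of 40 genes of the fork and of S phase that are not among the 48 had 33 tested genes. This list too was chosen with earlier results of these data known. Its median difference was 0.21 and the median size 0.52, beside 0.21 for the size among the 46 genes and 0.34 among all. With arrays scaled to equal medians the median size was 0.29 for this list, 0.30 for the 46 genes and 0.39 for all genes. Of the 33, 23 were above 0 and 10 below (14 above 0 with arrays scaled to equal medians). None passed the limma test over all genes, and 13 (39.4%, against 28.6% of all genes) had an unadjusted p under 0.05, 7 higher and 6 lower. The transfected arrays lay wholly above the controls for 10 (30.3%, against 14.7% of all genes) and wholly below for 6 (18.2%, against 18.1%). Under other settings some of the list passed. POLD4, RIF1 and TOPBP1 did with cyclic loess and with trended robust variances, where 2.79% and 3.51% of all genes passed. With an offset of 50 it was 4 genes (4.07% of all genes), and among genes detected on all arrays 5 of 30 (4%). Without background correction 3 passed (4.65%), without transfected array 3 it was 9 (16.3%), and with array weights 20 (51.1%). Without transfected array 1, alone or together with control 1, 2 passed (4.66% and 4.86%). None passed under the remaining settings.

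The smallest p of that list belonged to POLD4, the smallest subunit of polymerase delta. Its log2 intensities were 7.72, 7.38 and 7.46 in controls and 6.65, 6.5 and 6.67 after transfection, 1.88-fold lower (-0.91 ± 0.17 SE, adjusted p = 0.0501). RIF1, which restrains origin firing, had 8.83, 8.54 and 8.81 in controls and 9.49, 10.14 and 9.68 after transfection, 2.06-fold higher (1.04 ± 0.21 SE, adjusted p = 0.0519). TOPBP1, which brings CDC45 to origins and activates the kinase ATR, had 9.34, 9.34 and 9.37 in controls and 10.57, 10.59 and 9.91 after transfection, 2.02-fold higher (1.01 ± 0.22 SE, adjusted p = 0.0537). In all 3 the groups lay apart. Among the subunits of polymerase delta, POLD1, POLD2 and POLD4 were thus below 0 and POLD3 above.

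Several kept probes were available for 15 of the 46 genes, and in 12 of these all had the same sign. RFC3, RFC4 and MCM4 were the exceptions, a share similar to the 495 of 2052 genes on the whole array. The 2 kept probes differed by under 0.04 for MCM3, POLA1, POLD3 and RPA1. Among genes with 2 kept probes the gap was widest for PRIM2 (0.63), MCM4 (0.50), ORC6 (0.34) and MCM8 (0.33). The 3 probes of RFC3 spanned 0.87. The median SD over the 3 arrays was 0.20 in controls and 0.30 in transfected cells for these genes, and the standard error over the beads of 1 array had a median of 0.06.

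Differences over all genes also followed the genomic span of the gene. Across genes, the difference and the span had a Spearman correlation of 0.29 for the 9790 genes with a span and 0.21 for the 46 replication genes, as a description of points that share the same 6 arrays. The 13 replication genes of the shortest class had a median difference of -0.01, where all genes of that class had -0.25. The 15 of the longest class had 0.15, where all genes had 0.13. The part of gene span in the differences of single genes was not tested.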

How the data were processed

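Signals came from 6 Illumina BeadChip arrays, 3 control and 3 transfected. Per the file headers, the non-normalized table holds a mean signal intensity, a bead number, the beads' standard error and a detection p-value per probe. The submitters' processing notes name BeadStudio without a version. The authors also deposited processed intensities, on a linear scale by a method not given in the sources used here, which served as an alternative.

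Background was corrected with nec (limma 3.58.1, R 4.3.3) using those deposited p-values and an offset of 16, followed by quantile normalization and log2. The 48804 rows held 48803 probes. Names came from the platform annotation, updated to RefSeq symbols: 27578 probes had 1 gene, 13 several, and the rest were unnamed here. A probe stayed in if 3 or more arrays had a detection p below 0.01, which left 14200 probes, 12101 of them with 1 gene; each of 9797 genes was read from its brightest kept probe. Groups were compared with lmFit and eBayes, two-sided, Benjamini-Hochberg adjusted over all genes, threshold 0.05; the script was tested on simulated data. Nothing in the labels pairs arrays, and p-values measure the spread between these arrays. The design text calls both groups biological triplicates, but part of that spread may be technical.

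The members, role groups and further list were chosen with earlier results of these data known. Genes given in full are, per role group, those with the smallest p (4 licensing, 5 helicase, 4 polymerase, 4 clamp, 1 in each other), those whose groups lay apart, those with probes of opposite sign, and 3 of the further list; the remaining members are named to account for all. Promoters and the microRNA were read from RefSeq tables with Python 3.11.15.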

Additional observations from a re-analysis of the deposited data

How the results depend on the processing

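The count of genes past the threshold, 0 of 9797, turned on the processing: it was 273 with cyclic loess, 3 with arrays scaled to equal medians, 456 without background correction, 399 with an offset of 50, 1 in the authors' processed table, 340 among genes detected on all arrays, 344 with trended robust variances, 5003 with array weights and 476 without control 1 and transfected array 1, a setting chosen after seeing the data. It stayed 0 with no filter and with the mean of kept probes. No replication gene was called under any of these except array weights, where 15 of 46 were, against 51.1% of all genes. With 1 array left out, 0 to 1600 genes and 0 to 3 replication genes passed, the highest of both without transfected array 3; 457 genes passed without transfected array 1 and 13 without control 1. Between 24 and 35 of the 46 genes were then above 0, with a median of 0.02 to 0.19, and 19 to 23 of the further list. Group medians ran from 0.15 to 0.38 for licensing, -0.17 to 0.18 for helicase, -0.10 to 0.21 for polymerase, 0.04 to 0.19 for clamp, -0.29 to -0.12 for single-strand binding and -0.16 to 0.21 for nucleotide supply.

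Scaling to equal medians left 9 of the 46 genes and 14 of the further list above 0. The median was then -0.18 for the 46 genes, -0.072 for licensing, -0.32 for helicase, -0.26 for polymerase, -0.15 for clamp, -0.60 for single-strand binding and -0.30 for nucleotide supply. The licensing median was 0.22 in the authors' table, 0.29 with array weights and 0.25 without control 1 and transfected array 1. Equal medians turned 19 of the 46 differences, all from above to below 0. Among genes given in full these were ORC6 (-0.061), CDC7 (-0.042), MCM6 (-0.067), PCNA (-0.069), TYMS (-0.31) and MCM4 (-0.32). MCM4 also turned in the authors' table (-0.0070), with the mean of kept probes (-0.24), with array weights (-0.27), and with 1 array left out, where it ran from -0.36 (without transfected array 3; -0.10 without control 1) to 0.24. TYMS turned without control 1 (-0.16) and without transfected array 2 (-0.09). RFC4 turned with the mean of kept probes (0.014), without control 1 (0.0090) and without control 1 and transfected array 1 (0.0071). With 1 array left out, RFC4 ran from -0.087 to 0.0090. The cause was not tested. No paired analysis was possible because the labels give no replicate numbers. Signals near background limit GINS1, DBF4, PRIM2 and RRM2. CDC6, ORC4, GINS4 and RFC2 were also dim, though detected on all arrays.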
